A study of Mus musculus with 12 samples.

Results

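The CXC chemokine ligands described here are 10 genes, Cxcl1, Cxcl2, Cxcl3, Cxcl5, Cxcl9, Cxcl10, Cxcl13, Cxcl14, Cxcl15 and Cxcl16, taken by symbol from the 23238 gene symbols counted in sorted mouse alveolar type II (ATII) cells. All 10 symbols were found, each on a single row, and 9 of them passed the low-count filter before testing. RNA was sequenced from 12 mice, 3 per group (Con, BLM, KO and KOBLM), with 1 library per mouse. Con and BLM mice are the p300 negative controls of the sample labels, which title the Con libraries WT. The paper's Results give these mice as Spc-p300 f/f, with loxP sites around exon 9 of both p300 alleles, whereas its sorting methods name C57BL/6 mice. KO and KOBLM mice are the ATII-specific knockouts, Spc-p300 d/d. The paper obtained them from crosses of p300 f/f mice with Spc-CreERT2 mice, in which the surfactant protein C promoter drives the tamoxifen-inducible CreERT2. If the controls are vehicle-treated Spc-p300 f/f mice, they carry CreERT2 too, whereas C57BL/6 mice would not. The labels give tamoxifen at 10 mg/kg in mice of 8 weeks without naming groups. The paper's supplement describes sorted ATII cells of Spc-p300 f/f mice given either vehicle or tamoxifen, without naming the sequenced mice, and on that scheme the controls received vehicle, so that tamoxifen and the deletion cannot be told apart. Bleomycin (BLM), a drug that breaks DNA and is given to rodents to produce lung fibrosis, was instilled into the trachea at 4 mg/kg in BLM and KOBLM, and Con and KO mice received PBS. The interval between bleomycin and cell sorting is not given in the sources used here.

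CXC chemokines are small proteins that steer leukocytes along concentration gradients, and they are named after the single residue that separates the first cysteines of their sequence. Members with the residues glutamate, leucine and arginine ahead of these cysteines attract neutrophils, mainly through the receptor Cxcr2, and in mouse this branch holds Cxcl1, Cxcl2, Cxcl3, Cxcl5 and Cxcl15. Members without them bind other receptors, such as Cxcr3 for the interferon-induced Cxcl9 and Cxcl10, Cxcr5 for Cxcl13, which attracts B cells, and Cxcr6 for Cxcl16, which is made as a membrane-anchored protein. In lung, Cxcl15, also called lungkine, is known as a product of the epithelium, while macrophages, epithelial cells and stromal cells can all make the Cxcr2 ligands.

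Of the 10 genes, 8 lie on chromosome 5 of GRCm38 (GENCODE M21). Genes outside the 10 were not placed, so the order given here is that of the members alone. Cxcl5 (90759360 to 90761624), Cxcl3 (90786103 to 90789600), Cxcl15 (90794534 to 90803067), Cxcl1 (90891241 to 90893115) and Cxcl2 (90903871 to 90905938) come in this order on the plus strand. Cxcl9 and Cxcl10 have no other member between them. Promoters are printed here for the 3 genes called in a comparison, Cxcl2, Cxcl13 and Cxcl15, and for Cxcl1, Cxcl3 and Cxcl10, to show which letters the neighbouring Cxcl1, Cxcl2 and Cxcl3 share and how the others differ from them. RefSeq promoter sequences (GRCm38.p6) were at hand for 8 of the 10 genes, and the 250 bases before each start site were searched on both strands. The lines for Cxcl1 (chr5:90891125-90891214), Cxcl2 (chr5:90903779-90903868) and Cxcl3 (chr5:90785981-90786070) are plus strand and run from base 120 to base 31 before the RefSeq start site, with the bases that match the kappa B consensus, the binding sequence of NF-kappa B factors, in capitals. The Cxcl10 line (chr5:92348975-92349114, minus strand) has the interferon-response motif GAAANNGAA and its kappa B matches in capitals, and the Cxcl15 line (chr5:90794414-90794533, plus strand) the TATA motif, TATAAA. In the Cxcl13 line (chr5:95956769-95956908, plus strand) the capitals mark first a match to the reverse complement of the C/EBP motif TTGCNNAA and then TATAAA.
Cxcl1: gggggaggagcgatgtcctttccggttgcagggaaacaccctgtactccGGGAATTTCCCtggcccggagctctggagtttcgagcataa
Cxcl2: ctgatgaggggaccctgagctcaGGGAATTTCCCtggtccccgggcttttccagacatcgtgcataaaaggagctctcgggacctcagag
Cxcl3: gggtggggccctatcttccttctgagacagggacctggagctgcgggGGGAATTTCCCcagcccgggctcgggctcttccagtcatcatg
Cxcl10: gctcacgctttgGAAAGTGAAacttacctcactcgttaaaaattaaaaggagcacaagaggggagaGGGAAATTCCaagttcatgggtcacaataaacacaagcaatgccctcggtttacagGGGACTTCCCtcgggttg
Cxcl13: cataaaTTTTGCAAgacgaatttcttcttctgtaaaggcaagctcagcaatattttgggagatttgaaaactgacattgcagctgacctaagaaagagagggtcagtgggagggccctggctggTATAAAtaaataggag
Cxcl15: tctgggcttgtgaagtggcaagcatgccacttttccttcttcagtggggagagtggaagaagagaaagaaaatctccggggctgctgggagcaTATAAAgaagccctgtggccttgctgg

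The kappa B consensus was matched in 4 of the 8 promoters, those of Cxcl1, Cxcl2, Cxcl3 and Cxcl10, and in 1281 of 32851 promoters of the same length (3.90%). In Cxcl1, Cxcl2 and Cxcl3 the matches on both strands overlap and cover the same 11 bases, GGGAATTTCCC. Cxcl10 held 2 separate matches. GAAANNGAA occurred in Cxcl9, Cxcl10 and Cxcl14 and in 7.13% of all promoters. The C/EBP motif searched, TTGCNNAA, occurred in Cxcl13 alone among the 8 and in 9.56% of all promoters, and TATAAA in Cxcl3, Cxcl9, Cxcl13 and Cxcl15 and in 12.4% of all. These matches describe the sequence only, and binding to these promoters was not measured here.

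Counts are reads assigned to a gene symbol by the authors, and CPM are counts scaled to a common library total. Each polyadenylated transcript is read by this kit near its 3′ end, so that levels of different genes can be set side by side without a length correction. None of the 75-nt windows in the last 500 nt of the members' GENCODE transcripts (426 or 593 windows per gene) occurred in a transcript of another gene, so that exact sharing of reads among these paralogs was 0 by that measure.

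Library totals ran from 7005005 to 11153154 counts, at which 3 counts, the detection floor used here, correspond to 0.269 to 0.428 CPM. This floor and the confidence intervals of shares cover counting error only, as the reads carry no molecular identifiers and may be copies of 1 molecule. The libraries spread widely, with a biological coefficient of variation of 1.44 within groups. Ep300, which encodes p300, had levels of 141.2, 143.4 and 51.0 CPM in Con, 118.8, 90.5 and 42.6 in BLM, 145.4, 153.5 and 103 in KO and 169.4, 54.2 and 96.0 in KOBLM, with no lower mean in the libraries labelled as deleted (log2 fold change 0.39 for KO against Con and for KOBLM against BLM, SE 0.69 for both). This kit reads near the transcript end, so these counts do not show whether the floxed exon was present. Why the mean was not lower was not tested. The study checked the deletion in other material, by qRT-PCR of sorted ATII cells and by co-immunofluorescence of lung, measures that were not analysed here. The library labelled BLM 3 stood apart. The summed level of 10 pluripotency genes was 2250.7 CPM there and at most 18 CPM elsewhere, and the library held counts of 6847 genes against 8790 to 13838 elsewhere. Epcam, the gene of the sorting antigen EpCAM, was at 329 CPM there, the highest of all libraries, and Sftpc at 73.7 CPM. Sftpb was at 3.59 CPM, and Lpcat1 and Nkx2-1 were at 0. Of 12 ATII markers, 7 had more than 3 counts in BLM 3 and 5 were at 0. Beside the pluripotency transcripts, its counts do not settle whether BLM 3 holds ATII cells as labelled. Values without it are given beside many of the ligand results that use BLM, and not for the tests of other genes. A list of 17 macrophage markers summed higher than the list of 12 ATII markers in 12 of 12 libraries, with 8999.0 to 41000.8 CPM (1175.5 in BLM 3) against 182.7 to 2070.6 CPM. The macrophage list includes Lyz2, which was not shown here to be specific to macrophages, and a sum without Lyz2 is not reported. Among ATII markers, Sftpc, the surfactant protein C gene, lay between 0.554 and 612 CPM. In Con 1, Con 2 and Con 3, Sftpb was at 202, 436 and 141 CPM, Sftpa1 at 294, 478 and 138 CPM and Epcam at 201, 82.7 and 118 CPM. Lpcat1 reached at most 0.428 CPM in any library, and Nkx2-1, a transcription factor of lung epithelium, at most 4.55 CPM (34 counts, in Con 1). Surfactant transcripts were thus present in Con, while the ATII list as a whole stayed below the macrophage list. In such bulk samples, fewer cells of a type and less RNA per cell cannot be told apart.

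Cxcl2 was the most abundant CXC ligand in all 12 libraries. Its mean level over them, 2650 CPM, compares with 47.2 CPM for Cxcl16, 44.3 CPM for Cxcl15 and 0.167 CPM for Cxcl5, the lowest. The second ligand by group mean was Cxcl15 in Con (119 CPM), Cxcl16 in BLM (77.5 CPM), Cxcl9 in KO (65.5 CPM) and Cxcl1 in KOBLM (56.9 CPM). Cxcl2 held between 46.6% and 97.7% of the summed counts of the 10 genes. The lowest share was in KO 3 (Wilson 95% interval 45.5 to 47.7), where Cxcl9 held 25.8% (24.8 to 26.8) and Cxcl15 13.5% (12.8 to 14.3). In the Con libraries Cxcl15 was the second ligand, with 8.96% (8.34 to 9.62), 23.8% (22.8 to 24.8) and 9.87% (9.26 to 10.5) of the CXC counts. In BLM 1 and BLM 2 it held 0.03% (0.02 to 0.04) and 0.04% (0.02 to 0.06), whereas in BLM 3 it held 24.5% (21.5 to 27.7) of only 727 CXC counts.

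**Figure D1:**
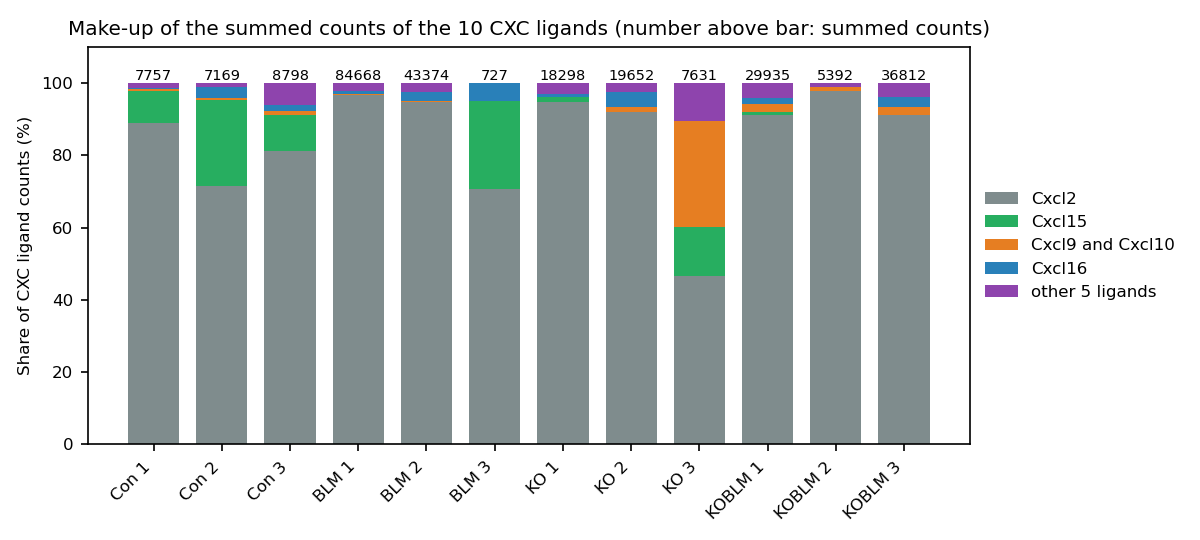
Share of the summed counts of the 10 CXC ligands (y axis, percent) held by Cxcl2, Cxcl15, Cxcl9 with Cxcl10, Cxcl16 and the other 5 ligands in each library (x axis), with the summed counts above each bar. Cxcl2 fills most of every bar except that of KO 3 (46.6%), and the Cxcl15 segment is widest in Con 2 (23.8%) and BLM 3 (24.5%).

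Detection of the members differed between libraries. All 10 genes had more than 3 counts in BLM 1 and 9 had so in BLM 2 and KO 2. Only 3 genes did in BLM 3 and in KOBLM 2, and 7 were at 0 in each of these libraries. In the other 10 libraries at most 4 were at 0. KOBLM 2 held counts of 9018 genes and BLM 3 of 6847, where the range elsewhere was 8790 (KO 3) to 13838. The part that this lower gene detection has in the zeros was not tested.

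**Figure D2:**
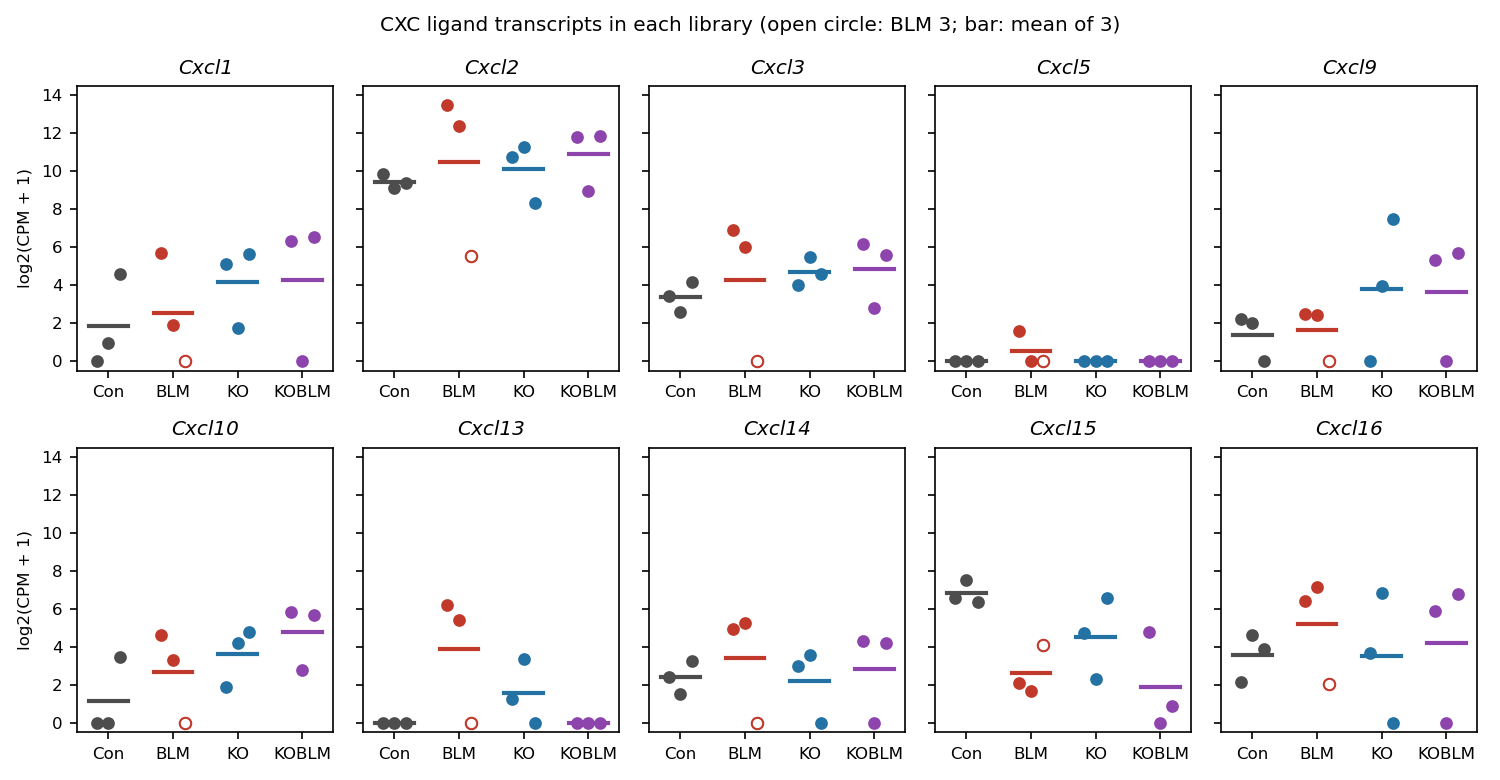
Level of each CXC ligand as log2(CPM + 1) (y axis) in the 12 libraries, by group (x axis). Points are single mice, bars are means of 3 mice on this scale, and the open circle is BLM 3. Cxcl15 is the gene whose Con and BLM points do not overlap, and Cxcl13 is at 0 in every Con and KOBLM library.

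Whether bleomycin changed the CXC ligands in control mice was asked by comparing BLM with Con. Cxcl2 and Cxcl13 were higher and Cxcl15 was lower in BLM, and the other 6 tested genes, all with higher fitted values in BLM, did not pass the threshold. A gene was called where the fold change exceeded 1.5 and edgeR's quasi-likelihood test gave an unadjusted p below 0.05. By this rule 3 of the 9 tested genes were called, beside 4.27% of all 13054 tested genes, 2.19% higher and 2.08% lower (286 and 272 genes, and 154 and 240 with a replicate block). With Benjamini-Hochberg adjustment over all genes edgeR called 0 genes, against 558 at the unadjusted p, and adjusted p values of members are given only where they were under 1.0. DESeq2 called 947 genes unadjusted and 114 adjusted, among them Cxcl13 as the only member. The median log2 fold change of the 9 genes was 2.35, also with Cxcl13 set to its lower bound, beside -0.08 for all tested genes.

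Cxcl2 is a Cxcr2 ligand also known as macrophage inflammatory protein 2. Its counts were 6902, 5137 and 7152 in Con and 81926, 41065 and 514 in BLM. In CPM this was 923, 549 and 674 in Con and 11695, 5417 and 46.1 in BLM. BLM 1 and BLM 2 lay above every other library of the study, and BLM 3 lay below all of them, so that the groups overlapped. In BLM 1 Cxcl2 was the third most counted gene of the library, and in Con it ranked between 103 and 201. The means were 716 ± 190.3 CPM in Con and 5720 ± 5831 CPM in BLM (n = 3 mice each, SD, exact permutation p = 0.4). The log2 fold change was 3.12 (SE 1.28, past the unadjusted threshold, edgeR adjusted p = 0.995). Without BLM 3 it was 3.71 (edgeR adjusted p = 0.221), and over 11 alternative settings the adjusted p lay between 0.193 and 1.0. The unadjusted p was over 0.05 without Con 2, without Con 3 and without BLM 1 (log2 fold changes of 2.99, 3.06 and 2.14).

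Cxcl3, the paralog of Cxcl2 with the same motif in its promoter, was counted at 74, 47 and 185 in Con and at 826, 486 and 0 in BLM. Its levels were 9.90, 5.03 and 17.4 CPM in Con and 117.9, 64.1 and 0 CPM in BLM, with BLM 3 again the lowest of all libraries. The log2 fold change of 2.64 (SE 1.66) did not pass the threshold with all libraries. Without BLM 3 it was 3.22 and passed (edgeR adjusted p = 0.499, the lowest of 11 settings, the highest being 1.0). Within a library there were between 14.0 and 113 counts of Cxcl2 for each count of Cxcl3 (median 84.5, 11 libraries with both above 3 counts), the lowest in KO 3. Cxcl1, which encodes the keratinocyte-derived chemokine KC, was counted at 0, 9 and 251 in Con and 356, 21 and 0 in BLM. Single libraries thus dominated both groups, and the log2 fold change of 1.25 (SE 2.34) turned to -2.33 without BLM 1 and was 1.83 without BLM 3.

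Cxcl5, which encodes the neutrophil attractant LIX, had 14 counts in BLM 1, which are 2.0 CPM, and 0 in the other 11 libraries. It did not pass the low-count filter and was not tested. In a library at 0, the floor allows up to 0.269 to 0.412 CPM.

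Cxcl15 was the only member called lower in BLM than in Con. Its counts were 695, 1707 and 868 in Con and 23, 17 and 178 in BLM, or 93.0, 183 and 81.8 CPM against 3.28, 2.24 and 16.0 CPM. All 3 BLM libraries, BLM 3 included, lay below all 3 Con libraries, which in this direction held for 11.8% of all tested genes. The means were 119 ± 55.2 CPM in Con and 7.16 ± 7.64 CPM in BLM (n = 3 mice each, SD, 16.6-fold lower, exact permutation p = 0.1, the smallest that 3 against 3 can give). Without BLM 3 the BLM mean was 2.76 CPM. The log2 fold change was -4.22 (SE 1.78, edgeR adjusted p = 0.995) and lay between -5.31 and -3.72 when a library was left out. In 3 of these 6 fits, those without Con 2, BLM 1 or BLM 2, the unadjusted p was over 0.05.

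Of the 11 ATII markers tested, 2 were lower in BLM past the threshold, Sftpc and Sftpa1, beside 2.08% of all tested genes. Of the 11, 0 were higher, beside 2.19% of all tested genes. Among the 9 that did not pass, log2 fold changes ran from -3.26 for Lamp3 to 1.16 for Napsa and 2.42 for Etv5, with Epcam at -0.29. Sftpc fell from counts of 1735, 5720 and 1472 in Con to 176, 137 and 822 in BLM (log2 fold change -3.20, SE 1.27, edgeR adjusted p = 0.995). Sftpa1, the surfactant protein A1 gene, had a log2 fold change of -3.32 (SE 0.99, edgeR adjusted p = 0.995). Relative to Sftpc in the same library, a ratio chosen after the values were seen, there were 40.1, 29.8 and 59.0 counts of Cxcl15 per 100 counts of Sftpc in Con and 13.1, 12.4 and 21.7 in BLM. This ratio was lower in every BLM library than in every Con library. Per 100 counts of Sftpa1 the values were 31.6, 38.2 and 59.1 in Con and 13.3, 4.99 and 91.3 in BLM, and here BLM 3 lay above Con. The part that the surfactant-expressing cells have in the change of Cxcl15 was not tested.

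**Figure D3:**
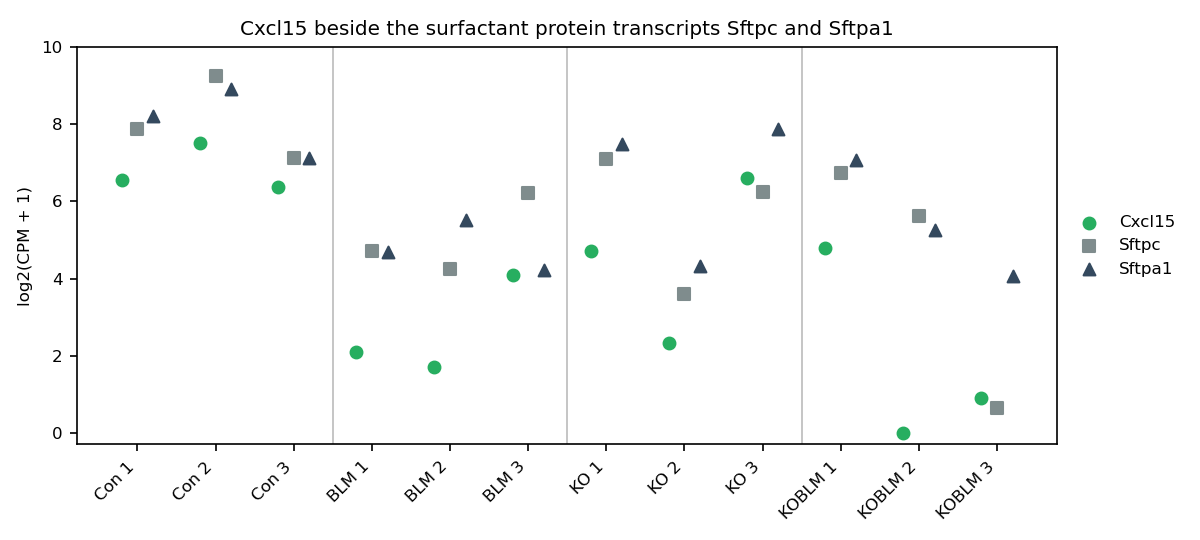
Cxcl15, Sftpc and Sftpa1 as log2(CPM + 1) (y axis) in each library (x axis), with vertical lines between the groups. Cxcl15 lies between 81.8 and 183 CPM in Con and at or below 16.0 CPM in BLM.

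Among the members outside the neutrophil-attracting branch, Cxcl13 gave the widest contrast. No Con library had a count of it, whereas BLM 1, BLM 2 and BLM 3 had 514, 315 and 0, or 73.4, 41.6 and 0 CPM. Against the floor of 3 counts per library, its BLM mean was higher by at least 114-fold (exact permutation p = 0.4). It passed the unadjusted threshold in edgeR (adjusted p = 0.995), and DESeq2 gave an adjusted p = 0.0442, the lowest of 11 alternative settings, whose highest was 1.0. The unadjusted p stayed under 0.05 in each of the 6 fits that left out a Con or BLM library. Cxcl13 (chromosome 5, 95956951 to 95961068, plus strand) is 3608062 bp beyond Cxcl10, and its promoter window held no match to the kappa B consensus.

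Cxcl16, which binds Cxcr6, was counted at 26, 223 and 147 in Con and 601, 1088 and 35 in BLM, a log2 fold change of 2.63 (SE 2.12). Cxcl14, a chemokine of epithelia and other tissues, was counted at 32, 18 and 90 in Con and 209, 279 and 0 in BLM, a log2 fold change of 2.35 (SE 2.54). For both genes BLM 1 and BLM 2 lay above every Con library and BLM 3 lay low. Neither passed the threshold without BLM 3, with log2 fold changes of 3.20 for Cxcl16 and 2.94 for Cxcl14. Cxcl16 lies on chromosome 11 (70453983 to 70459984) and Cxcl14 on chromosome 13 (56288643 to 56296551), both on the minus strand.

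Neither Cxcr3 ligand passed the threshold between BLM and Con with all libraries. Cxcl9 was counted at 28, 28 and 0 in Con and 32, 34 and 0 in BLM, so that the groups had nearly the same values (log2 fold change 0.54, SE 2.37). Cxcl10 was counted at 0, 0 and 105 in Con and 167, 69 and 0 in BLM, means of 3.30 and 11.0 CPM, which is 3.33-fold (exact permutation p = 0.7, log2 fold change 1.89, SE 2.28). Both standard errors exceed 2 on the log2 scale, so that even a several-fold change in either direction would not be detectable here. Without Con 3, the only Con library with Cxcl10 counts, the fitted value was 9.68 and passed the unadjusted threshold, a size that depends on a group at 0. With BLM 3 left out, the fitted values were 1.14 for Cxcl9 and 2.47 for Cxcl10, and neither passed.

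**Figure D4:**
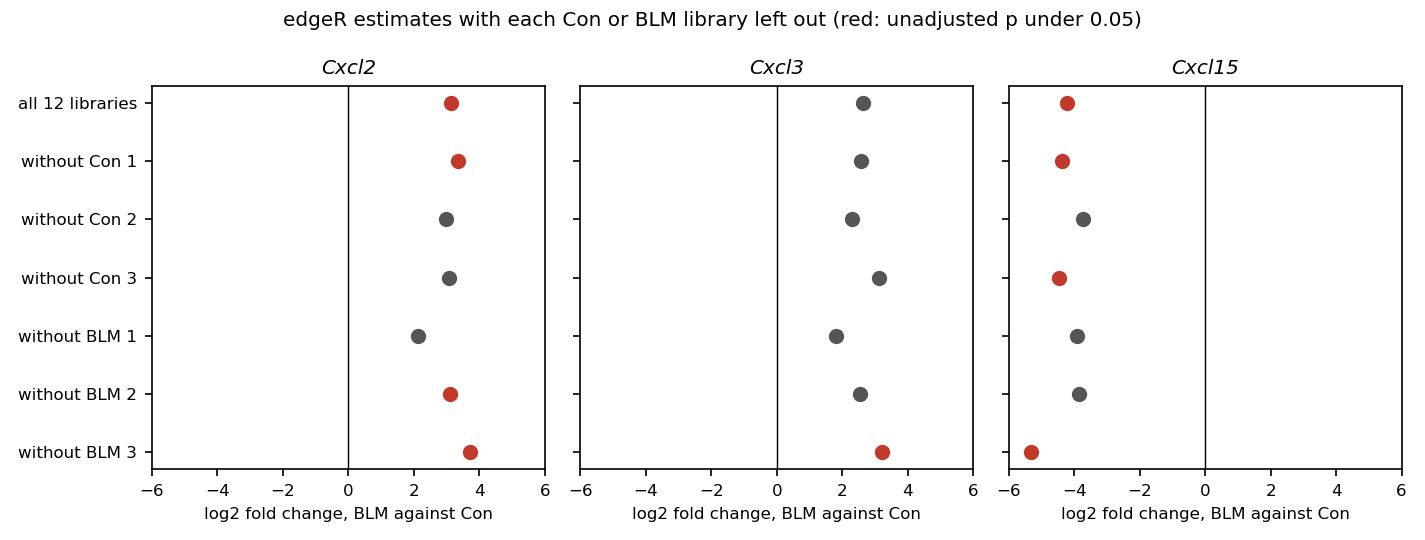
Log2 fold change between BLM and Con (x axis) of Cxcl2, Cxcl3 and Cxcl15 with all 12 libraries and with each Con or BLM library left out (y axis). Red points passed the unadjusted p of 0.05 in edgeR. Cxcl2 stays positive, from 2.14 to 3.71, Cxcl3 passes only without BLM 3 (3.22), and Cxcl15 stays negative, from -5.31 to -3.72.

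Marker sums of other cells differed between these groups for some lists and overlapped for others. The 9 neutrophil markers found in the files summed to between 151.5 and 3894.2 CPM in Con and between 143.0 and 5891.1 CPM in BLM. Macrophage markers ran from 11999.3 to 25472.9 CPM in Con and from 1175.5 to 11509.1 CPM in BLM. Of the 17 genes of that list 3 were higher (C1qa, C1qb and C1qc, the subunits of complement C1q) and 3 lower (Mrc1, Ear2 and Itgax) past the threshold. Of all tested genes 2.19% were called higher and 2.08% lower. Fibroblast markers summed to 91.2 to 457.1 CPM in Con and 1134.3 to 1845.4 CPM in BLM, and dendritic cell markers to 64.6 to 147.4 and 172.2 to 482.4 CPM. Lists for T and NK cells, B cells, endothelium and airway reached at most 68.2, 61.6, 829.0 and 385.9 CPM in these libraries. Of the lists of other cells, besides macrophages, those with genes called higher in BLM were fibroblast (2 of 6), dendritic (1 of 7), airway (1 of 4) and pluripotency (3 of 4), and those with genes called lower were T and NK cells (2 of 8), B cells (2 of 4) and airway (1 of 4). The part of these cells in the ligand levels was not tested.

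Whether loss of p300 altered the ligands under bleomycin was asked by comparing KOBLM with BLM, which uses the same 3 BLM mice as the comparison above. Of the 9 tested genes, only Cxcl13 passed the threshold, lower in KOBLM, beside 3.16% of all tested genes, 1.78% in this direction. With adjusted p edgeR called 0 genes, against 413 unadjusted, while DESeq2 called 755 unadjusted and 78 adjusted, none of the 78 a member. The median log2 fold change of the 9 genes was -0.48, also with Cxcl13 at its bound, beside 0.09 for all genes, and 4 of the 9 were positive.

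Cxcl13 had 0 counts in all 3 KOBLM libraries, and the BLM mean was at least 112-fold above them (exact permutation p = 0.4). A count of 0 allows up to 0.401, 0.289 and 0.333 CPM in these libraries. Cxcl2 had 27309, 5269 and 33516 counts in KOBLM, or 3654, 507.5 and 3715 CPM, all of them between BLM 3 and the other BLM libraries. Its mean of 2626 ± 1835 CPM (SD, n = 3) was 2.18-fold below that of BLM (exact permutation p = 0.5). The log2 fold change was -1.10 (SE 1.19) and -1.68 without BLM 3, neither past the threshold. Cxcl3, with 536, 62 and 428 counts in KOBLM, had a log2 fold change of -0.53 (SE 1.57), and of -1.115 without BLM 3, neither past the threshold.

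Other members had higher fitted values in KOBLM than in BLM, and none of these passed the threshold. Cxcl1 had 593, 0 and 824 counts in KOBLM (log2 fold change 1.74, SE 2.36). Cxcl9 had 291, 0 and 455 counts (log2 fold change 3.31, SE 2.57), and Cxcl10 had 424, 61 and 451 (1.80, SE 2.27). In each case KOBLM 1 and KOBLM 3 lay above all BLM libraries and KOBLM 2 lay low. With BLM 3 left out, the log2 fold changes were 1.15 for Cxcl1, 2.72 for Cxcl9 and 1.21 for Cxcl10, none past the threshold. Cxcl15 stayed low in KOBLM, with 199, 0 and 8 counts, or 26.6, 0 and 0.887 CPM. Its log2 fold change of 0.62 against BLM (SE 1.57) turned to -3.62 without KOBLM 1. Cxcl14 had 143, 0 and 160 counts and Cxcl16 had 440, 0 and 970, with log2 fold changes of -0.86 and -0.48 (SE 2.43 and 2.0). The 4 tested pluripotency genes, high in BLM 3, were all lower in KOBLM than in BLM past the threshold. Genes on the lists of other cells were called too, beside 3.16% of all tested genes. Higher in KOBLM were 2 of 17 genes of the macrophage list (Itgax and Lyz2) and 2 of 8 T and NK cell markers (Gzma and Cd8a). Lower were 1 of 6 fibroblast markers (Col3a1) and 1 of 4 airway markers (Scgb1a1). The remaining marker lists, ATII included, had 0 calls. The part of these cells in the ligand levels was not tested.

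**Figure D5:**
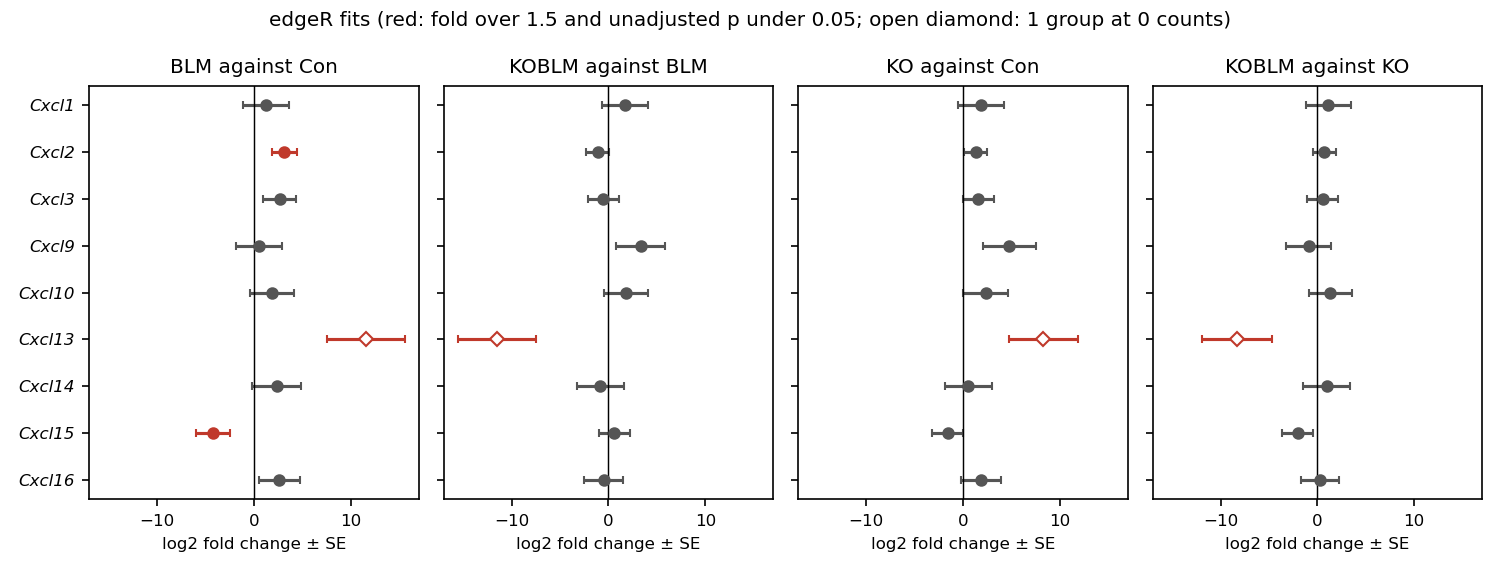
Log2 fold change from edgeR, with a standard error derived from its F value (x axis), of the 9 tested CXC ligands (y axis) in the 4 comparisons. Red marks a fold over 1.5 with an unadjusted p under 0.05, and the open diamond marks Cxcl13, whose fitted size depends on a group at 0 counts. Cxcl2, Cxcl13 and Cxcl15 are red between BLM and Con, and Cxcl13 alone is red in the other 3 comparisons.

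Whether deletion of p300 altered the ligands without bleomycin was asked by comparing KO with Con. Cxcl13 alone passed the threshold (1 of 9 tested genes, beside 1.44% of all, 0.536% in this direction), and it was higher in KO, with 14, 69 and 0 counts there and 0 in Con. Its mean of 3.63 ± 5.11 CPM (SD, n = 3) was at least 10.8-fold above the Con floor (exact permutation p = 0.4). The unadjusted p was over 0.05 without Con 1, Con 2, Con 3 or KO 2. Without KO 2, the fitted log2 fold change went from 8.29 to 5.84, and the remaining counts were the 14 of KO 1. Among the cell markers, C1qa alone was called here, higher in KO (log2 fold change 4.57, SE 1.82), and its part in the Cxcl13 counts was not tested. With adjusted p edgeR called 0 genes, against 188 unadjusted, and DESeq2 called 374 unadjusted and 80 adjusted, none of the 80 a member. The median log2 fold change of the 9 genes was 1.85, beside -0.09 for all genes.

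Cxcl9 had 0, 107 and 1966 counts in KO, or 0, 14.7 and 181.9 CPM, against 28, 28 and 0 in Con. The 1966 counts of KO 3 were the most in any library and nearly all of the group's total. The log2 fold change was 4.78 (SE 2.75), and it passed the unadjusted threshold with DESeq2 (4.89) and without the low-count filter (4.87). Without KO 3 it was 2.0 and did not pass. KO 3 also had the highest macrophage marker sum of all libraries, 41000.8 CPM, the highest sum of T and NK cell markers, 103.0 CPM, and the most Cxcr3, the receptor of Cxcl9, with 195 counts. Ifng, the gene of interferon gamma, had 75 counts in KO 2 and 0 in the other 11 libraries, KO 3 included. The part of these cells in the Cxcl9 counts was not tested.

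Cxcl2 had 17332, 18068 and 3555 counts in KO, a mean of 1522 ± 1095 CPM (SD, n = 3) and a log2 fold change of 1.31 against Con (SE 1.20). KO 1 and KO 2 lay above all Con libraries and KO 3 below them. Cxcl3 had 153, 327 and 254 counts (log2 fold change 1.56, SE 1.60), and Cxcl1 had 334, 17 and 539 (1.85, SE 2.37). Cxcl10 had 27, 125 and 284 counts (2.34, SE 2.31), and it passed only without Con 3, with a fitted 10.13 against a group then at 0. Cxcl15 had 250, 29 and 1033 counts, or 25.3, 3.98 and 95.6 CPM, which overlaps both Con and BLM (log2 fold change -1.57 against Con, SE 1.59). Cxcl14 had 70, 79 and 0 counts, and Cxcl16 had 118, 831 and 0. Their log2 fold changes of 0.55 and 1.89 (SE 2.42 and 2.06) turned negative without KO 2, to -0.32 and -1.09.

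The effect of bleomycin in the libraries labelled as p300-deleted was asked by comparing KOBLM with KO. Cxcl13, lower in KOBLM, was again the only member past the threshold (1 of 9, beside 1.69% of all, 0.529% in this direction), at least 10.7-fold below KO (exact permutation p = 0.4). With adjusted p edgeR called 0 genes, against 221 unadjusted, and DESeq2 called 460 unadjusted and 57 adjusted, none of the 57 a member. The median log2 fold change of the 9 genes was 0.54, beside 0.08 for all genes. Without KO 2, or without any single KOBLM library, the unadjusted p of Cxcl13 was over 0.05. Of the cell markers, Cd3g, a T cell receptor subunit, alone was called, higher in KOBLM, and its part in the ligand levels was not tested. Cxcl2 was 1.72-fold higher in the KOBLM mean than in the KO mean (log2 fold change 0.71, SE 1.19). Cxcl15 had a log2 fold change of -2.03 (SE 1.62), which was -6.36 without KOBLM 1 and then passed. The remaining 6 genes had log2 fold changes between -0.92 and 1.35 and did not pass.

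An interaction term of genotype and bleomycin tested whether the change after bleomycin depended on p300. It passed the unadjusted threshold for 1 of the 9 genes, Cxcl13, beside 2.82% of all tested genes, 1.31% in this direction. With adjusted p edgeR called 0 genes, against 368 unadjusted, and DESeq2 called 625 unadjusted and 85 adjusted, Cxcl13 among them. Markers of other cells passed the same test, C1qa (-6.15), C1qb (-5.96) and C1qc (-6.67) in the direction of Cxcl13 and Itgax (2.07), Gzma, Ncr1, Cd8a and Kdr (3.03) in the other, and their part in the Cxcl13 values was not tested. For Cxcl2, bleomycin gave a change lower by 2.41 on the log2 scale in the p300-deleted libraries than in the controls, an interaction of -2.41 (SE 1.69). Without BLM 3 this was -2.99 and passed the unadjusted threshold, as it did without the low-count filter (-2.39). For Cxcl15 it was 2.19 (SE 2.23). The other members gave values between -2.36 and -0.11, each smaller than its standard error.

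The rest of the CXC axis, 3 further ligands, the platelet chemokines Pf4 and Ppbp and 8 receptors, held 10 tested genes of 13. Between BLM and Con 1 of the 10 was higher and 0 lower, beside 2.19% and 2.08% of all tested genes. The gene called was Pf4, platelet factor 4, counted at 253, 228 and 156 in Con and 7502, 1959 and 0 in BLM (log2 fold change 4.29, SE 1.76, edgeR adjusted p = 0.995). Between KOBLM and BLM 0 of the 10 passed, beside 3.16% of all tested genes. Ackr3, an atypical receptor that takes up Cxcl12, was lower in KO than in Con and lower in KO than in KOBLM, with 1, 0 and 0 counts in KO, 1, 146 and 205 in Con and 365, 0 and 145 in KOBLM (edgeR adjusted p = 1.0 for both). Cxcr3 was lower in KOBLM, at 0 in all 3 libraries, than in KO (edgeR adjusted p = 1.0). Cxcr2, the receptor of the neutrophil-attracting branch, was counted at 10, 93 and 545 in Con and 1432, 282 and 39 in BLM and did not pass in any of the 4 comparisons. Cxcl12 and Cxcr4, a ligand and its receptor, did not pass either, with group means of 31.0 to 74.1 CPM for Cxcl12 and 44.3 to 74.2 CPM for Cxcr4. Ppbp, pro-platelet basic protein, had group means of 4.50 (BLM) to 34.2 CPM (Con) and Cxcr5, the receptor of Cxcl13, of 6.55 (BLM) to 15.1 CPM (KO), and neither passed in the 4 comparisons. In the interaction 1 of the 10 genes passed, beside 2.82% of all tested genes. It was Ackr3 (8.35, SE 3.89), whose size depends on KO at or under the floor.

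NF-kappa B and interferon pathway genes were counted in the same comparisons. Of 21 genes of the NF-kappa B pathway, all tested, 3 were called between BLM and Con, beside the 4.27% of all genes. The 2 that were higher in BLM were Relb (log2 fold change 4.09) and Il1b (2.74). Tnfaip2, an NF-kappa B target, was lower in BLM than in Con (-1.82, edgeR adjusted p = 0.995 for the 3 genes) and higher in KOBLM than in BLM (1.66). Of 28 interferon genes tested, 1 passed between BLM and Con and 1 between KO and Con. In both it was Gbp5, a guanylate-binding protein induced by interferon gamma, with 54, 138 and 0 counts in BLM, 52, 71 and 0 in KO and 0 in Con. These single calls stand beside 4.27% and 1.44% of all genes. Between KOBLM and BLM, and between KOBLM and KO, 0 of the interferon genes passed.

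Genes whose pattern over the 12 libraries was most like that of a member were found as those with the smallest root mean square difference of centred log2(CPM + 1). For Cxcl3 these were Clec4d, a myeloid C-type lectin receptor (0.56), and Ms4a6c (0.58), where the spread of Cxcl3 itself was 1.85. For Cxcl16 they were Cd86, a co-stimulatory molecule of antigen-presenting cells (0.70), and Baiap2 (0.90), for Cxcl10 Pla2g7 (0.89) and the chemokine Ccl9 (0.96), and for Cxcl9 Slamf8 (0.97) and Tlr1 (1.28). For Cxcl2 they were Hopx (0.78) and Rassf2 (0.79), and for Cxcl13 Egln3 (0.64) and 2010005H15Rik (0.68). Cxcl14 was nearest to Fbxo4 (0.57) and Zfp771 (0.63), Cxcl1 to H2-L (1.42) and Rtp4 (1.56), and Cxcl15 to Espn (1.27) and Repin1 (1.30). These distances describe these libraries only, in which sparse genes share zeros in BLM 3 and KOBLM 2.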

How the data were processed

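RNA of ATII cells sorted as CD74-positive and EpCAM-positive from 12 mice was made into QuantSeq 3′ libraries by the authors and sequenced as single-end reads. The authors deposited raw counts per gene symbol, without normalization. The submitters' processing notes name Bowtie2, edgeR and mm10. Versions, the annotation and the counting program are not given in the sources used here. The sample titles gave groups and replicate numbers. Rows of the 35 repeated symbols were added up, and CPM was computed from library totals.

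Genes were filtered with filterByExpr (minimum count 10, minimum total 15), which left 13054, scaled by TMM (factors 0.84 to 1.25) and fitted with edgeR 4.0.16 (R 4.3.3) as 1 quasi-likelihood model of the 4 groups, with 8 residual degrees of freedom. The threshold, a fold change over 1.5 (log2 0.585) with p under 0.05, is that of the paper, which does not name a test for the sequencing. Adjusted p values are Benjamini-Hochberg values over all tested genes. All tests were two-sided. The standard errors (SE) printed here were derived, as the absolute log2 fold change divided by the square root of the F value of edgeR's test. With 3 mice against 3, the smallest p of an exact permutation test of CPM is 0.1. The fitting was run on simulated counts, and recovery of changed genes was required only at a dispersion of 0.1, far below the 2.08 of these data. Its outcome at a spread like that of these data is not reported here.

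Alternatives were other scalings, no filter, a replicate block, DESeq2 1.42.0, adjusted p and the omission of each library. Omitting BLM 3 from comparisons that do not hold it was added after seeing the data. The members and lists were chosen with earlier results of these data known. All 10 members are named, other genes of the CXC axis if called or at 10 CPM or more in some group, interferon and NF-kappa B genes if called, and the 2 genes nearest to each member. C1q subunits, Ifng and the other cell markers named were chosen after their values were seen. Positions are from GENCODE M21 on GRCm38, the build that mm10 denotes. No protein sequences were used here.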

Additional observations from a re-analysis of the deposited data

Results flagged for a closer look

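The effect of bleomycin on Cxcl13 differed between the genotypes as labelled, by edgeR's interaction test. The log2 change in the p300-deleted libraries minus that in the controls was -19.81 (past the unadjusted threshold, edgeR adjusted p = 1.0, DESeq2 adjusted p = 0.00572 with a fitted value of -18.64, range of the adjusted p over 17 alternative settings 0.00572 to 1.0). Its size depends on groups at 0, since Con and KOBLM had 0 counts in each of their 3 libraries, and no bound is given by it. The counts behind it are 514 and 315 in BLM 1 and BLM 2 and 14 and 69 in KO 1 and KO 2, with 0 in BLM 3 and KO 3. Of 17 macrophage markers 4 passed the same interaction, beside 2.82% of all tested genes. These were C1qa (-6.15), C1qb (-5.96) and C1qc (-6.67) in the same direction and Itgax (2.07) in the other. Of 8 T and NK cell markers 3 passed in the other direction (Gzma, Ncr1 and Cd8a), as did 1 of 7 endothelial markers (Kdr, 3.03). The part of these cells in the Cxcl13 counts was not tested.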

How the results depend on the processing

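With an adjusted p under 0.05 in edgeR, 0 CXC ligands and 0 genes overall passed in the 4 comparisons and in the interaction. For the ligands, KO against Con gave 2 without the low-count filter, 2 with DESeq2 and 0 with the replicate block, KOBLM against KO gave 0 with the block, and the interaction gave 2 without the filter. Over all genes, DESeq2 gave 947 for BLM against Con, 755 for KOBLM against BLM, 374 for KO against Con, 460 for KOBLM against KO and 625 for the interaction. Without the filter, KOBLM against BLM gave 645 and the interaction 706. The replicate block gave 262, 100, 100 and 242 genes for KOBLM against BLM, KO against Con, KOBLM against KO and the interaction, against 413, 188, 221 and 368 without it. The higher and lower genes under the block were 154 and 240 for BLM against Con (286 and 272 without it), 147 and 115 for KOBLM against BLM (181 and 232), 20 and 80 for KO against Con (70 and 118), 80 and 20 for KOBLM against KO (152 and 69) and 164 and 78 for the interaction (197 and 171). The cause of these differences was not tested.

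Whether the numbers pair the mice is not known. Of 18 same-numbered pairs, 0 had deviations from their group means correlated over 0.1 (-0.17 to 0.09), and 7 of the 18 correlated best with their own number. Between Con and KO, replicates 1, 2 and 3 each did so (0.04, 0.08 and 0.09). Deviations from a mean of 3 depend on each other, so that these values cannot exclude a pairing. With the block the log2 fold change of Cxcl2 between BLM and Con was 2.61 and no longer past the threshold, and that of Cxcl16 between KOBLM and BLM was 0.60 against -0.48 without it.

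When each library was left out in turn, between 1 and 4 ligands passed in BLM against Con, 0 and 1 in KO against Con and in KOBLM against KO, 1 throughout in KOBLM against BLM, and 1 and 2 in the interaction. The 4 in BLM against Con came without BLM 3, the 1 without Con 2 or BLM 1, and the 2 in the interaction without Con 3 or BLM 3. Leaving out BLM 3 also gave the most genes in BLM against Con, 767, where all libraries gave 558. Genes overall ranged from 292 to 767, 88 to 446, 105 to 433, 236 to 471 and 332 to 672 in the same order, with the lowest counts without Con 1, KO 2, KO 3, KOBLM 2 and Con 1. Leaving out BLM 3, a setting chosen after seeing the data where a comparison does not hold it, gave 354 genes for KO against Con and 433 for KOBLM against KO. Scaling by library totals moved the median of all genes by over 0.1 for KO against Con alone, from -0.09 to -0.21. Directions turned in some of these fits for members that were not past the threshold. The ranges between BLM and Con were -0.042 to 1.14 for Cxcl9 and -2.33 to 5.17 for Cxcl1, and those between KOBLM and BLM -1.12 to 0.31 for Cxcl3, -1.44 to 0.41 for Cxcl16 and -3.62 to 1.71 for Cxcl15. Between KO and Con they were -0.32 to 1.17 for Cxcl14 and -1.09 to 2.61 for Cxcl16, and between KOBLM and KO -1.57 to 1.86 for Cxcl9, -0.69 to 3.24 for Cxcl16 and -0.083 to 1.20 for Cxcl3. In the interaction they were -4.04 to 3.47 for Cxcl1, -8.33 to 0.64 for Cxcl10, -3.32 to 0.62 for Cxcl16, -2.11 to 1.32 for Cxcl9 and -2.09 to 3.52 for Cxcl15. Under the settings that kept the libraries of a comparison, single members kept direction and side of the threshold in 256 cases, lost the threshold in 10, gained it in 3 and turned in 1. These cases include the adjusted p on the same fit, where no direction can turn and no threshold can be gained. They also include genes that passed under neither setting, so the tally is no measure of robustness. Single libraries with low gene detection and a spread of 1.44 within groups limit what 3 mice a group can show.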
